A study of Mus musculus with 17 samples.

Results

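The genes described here are 10 transcripts of vascular biology, most of them made by endothelial cells, in the visceral fat pad beside the gonads, perigonadal white adipose tissue (pWAT). They were Pecam1, Cdh5, Cldn5, Emcn, Vwf, Kdr, Flt1, Tek, Vegfa and Igfbp7, a list of named genes matched to their Ensembl identifiers, and all 10 were found among the 55401 gene identifiers measured. All 10 passed the filter on low values in each sex. Polyadenylated RNA of whole pWAT was sequenced from 17 C57BL/6J mice, 1 library per mouse, and the groups were 5 wild-type (WT) females, 5 U90926-deficient (U9-KO) females, 3 WT males and 4 U9-KO males. U9-KO mice are homozygous for a deletion of all 5 exons of U90926, a gene on chromosome 5 annotated as a long non-coding RNA in the study's title, and WT controls and U9-KO mice were littermates from heterozygous breeders. The methods place tissue collection at 16 weeks of age, and the mice ate standard chow without treatment. The deletion is present in every cell, so a value of the pWAT cannot be assigned to endothelial cells by the genotype.

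Endothelial cells line every vessel, and in fat a dense capillary bed sits beside each adipocyte. Vegfa, released by adipocytes among other cells, signals to endothelial cells through the receptor Kdr (VEGFR2), while Flt1 (VEGFR1) binds the same ligand and acts largely as a decoy. Tek (Tie2) is the receptor for angiopoietins, Cdh5 (VE-cadherin) and Cldn5 form the junctions between endothelial cells, and Pecam1, Emcn and Vwf are used as markers of vessels. Igfbp7 is a secreted protein abundant in vascular basement membranes and made by endothelial and other stromal cells.

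Values are the authors' normalized counts, read counts per gene divided by a size factor per library. Their sum over all genes ran from 20243688 to 24033629 in WT females, 21490907 to 28620744 in U9-KO females, 22024872 to 23787857 in WT males and 23407426 to 23916425 in U9-KO males, with U9-KO female 3 the highest. U90926 itself was listed at 0 or 1 in every WT library and at 0 in every U9-KO library, so these data hold no check of the genotype labels. WT female 4 and U9-KO female 1 carried most ovary transcripts, with 10 ovary markers summing to 126450 and 140584 against 4565 to 38177 in the other 8 females and 248 to 484 in males. Adipocyte markers were high in all libraries, at a summed value of 218781 to 654769 over 8 genes, and the lowest 2 sums were those of the 2 ovary-rich females.

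By the GENCODE annotation of GRCm38, all 10 are protein-coding genes, and a value counts reads over the exons of a gene. On chromosome 5, which also carries U90926 (chr5:92209893-92215408), lie Igfbp7 (ENSMUSG00000036256, chr5:77349240-77408041, minus strand), Kdr (ENSMUSG00000062960, chr5:75932827-75978458, minus strand) and Flt1 (ENSMUSG00000029648, chr5:147561604-147726011, minus strand), at 14.8, 16.2 and 55.3 Mb from it. The junction and surface genes are Pecam1 (ENSMUSG00000020717, chr11:106654217-106750628, minus strand), Cdh5 (ENSMUSG00000031871, chr8:104101625-104144511, plus strand), Cldn5 (ENSMUSG00000041378, chr16:18776847-18778262, plus strand) and Emcn (ENSMUSG00000054690, chr3:137341067-137432185, plus strand). The others are Vwf (ENSMUSG00000001930, chr6:125546774-125686679, plus strand), Tek (ENSMUSG00000006386, chr4:94739289-94874976, plus strand) and Vegfa (ENSMUSG00000023951, chr17:46016993-46032369, minus strand).

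The sequence before the transcription start is shown for Kdr and Flt1, which varied together, and Igfbp7, whose male groups did not overlap. It is also shown for Emcn, which with Flt1 held the first motif marked below. RefSeq promoter windows (GRCm38.p6) were matched for 7 of the 10 genes, with 8 windows because Vegfa has 2, and Pecam1, Cdh5 and Vwf were not matched. Only the 250 bases before the start were used, read 5′ to 3′ on the gene's own strand. In the first pair, capitals mark AGGAAG or its reverse complement CTTCCT, a form of the ETS factor motif. Its shorter part GGAA, or TTCC on the other strand, was not counted by itself, and the Kdr window below holds TTCC. A window without AGGAAG can therefore still hold other forms of the motif.
Flt1, chr5:147726012-147726261, minus strand: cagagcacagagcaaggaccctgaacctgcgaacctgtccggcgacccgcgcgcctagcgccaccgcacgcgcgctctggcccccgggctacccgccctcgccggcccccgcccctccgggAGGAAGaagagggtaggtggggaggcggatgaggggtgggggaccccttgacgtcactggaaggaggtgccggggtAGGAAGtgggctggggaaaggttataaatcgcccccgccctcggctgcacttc
Emcn, chr3:137340828-137341077, plus strand: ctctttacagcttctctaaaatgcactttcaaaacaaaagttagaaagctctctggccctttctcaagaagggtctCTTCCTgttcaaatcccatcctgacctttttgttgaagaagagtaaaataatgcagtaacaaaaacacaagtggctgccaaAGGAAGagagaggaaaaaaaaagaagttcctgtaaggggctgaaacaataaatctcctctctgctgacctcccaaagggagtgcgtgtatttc
In the second pair, capitals mark GGGCGG or its reverse complement CCGCCC, the GC box.
Kdr, chr5:75978456-75978705, minus strand: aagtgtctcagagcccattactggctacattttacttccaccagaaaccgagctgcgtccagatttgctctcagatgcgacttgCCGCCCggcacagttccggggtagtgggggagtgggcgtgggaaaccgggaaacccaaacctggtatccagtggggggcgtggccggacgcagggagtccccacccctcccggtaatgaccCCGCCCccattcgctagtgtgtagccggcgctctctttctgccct
Igfbp7, chr5:77408046-77408295, minus strand: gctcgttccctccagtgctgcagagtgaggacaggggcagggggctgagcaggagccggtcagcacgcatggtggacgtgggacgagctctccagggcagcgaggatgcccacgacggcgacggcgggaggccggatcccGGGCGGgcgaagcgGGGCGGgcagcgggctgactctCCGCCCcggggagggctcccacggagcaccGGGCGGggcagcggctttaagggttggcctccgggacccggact
AGGAAG was present on either strand in Flt1 and Emcn, 2 of the 7 genes, and in 29.5% of all 32851 windows of the same length. GGGCGG was present in Kdr, Flt1, Cldn5, Igfbp7 and Vegfa, 5 of the 7 genes, and in 32.7% of all windows. It occurred 4 times in Igfbp7 and 3 times in Flt1. The hypoxia-response core ACGTG was found once in Igfbp7 and once in the second Vegfa window, and in 16.6% of all windows. That Vegfa window (chr17:46025164-46025413) lies inside the annotated gene, and the bases after its start matched no GENCODE transcript of Vegfa. The first Vegfa window, whose start did match, held no ACGTG. GC content was 74% in Igfbp7, 70.4% in Flt1, 61.6% in Kdr and 40.8% in Emcn, against a median of 52.4% over all windows. These matches describe letters in the window and are not evidence of binding.

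On a per-length scale, Igfbp7 was the most abundant of the 10 transcripts in every group. In WT females its mean level was 11113 ± 1662 normalized counts per kb of exon (SD, n = 5), followed by Vegfa at 1879 ± 198 and Cldn5 at 1300 ± 176, and the mice of Igfbp7 and Vegfa, and of Vegfa and Cldn5, did not overlap. Cldn5 overlapped with Cdh5. Cdh5 (916 ± 170), Pecam1 (687 ± 107), Kdr (456 ± 104) and Tek (314 ± 44.4) followed, each overlapping with the next. Flt1 (182 ± 35.0), Emcn (143 ± 10.7) and Vwf (131 ± 34.8) were the lowest and overlapped with their neighbours in the order, with Tek above Flt1 in all mice. The order in U9-KO females differed only in Vwf standing above Emcn, a pair whose ranges overlapped. In WT males Cldn5 (2460 ± 114 per kb, n = 3) stood above Vegfa (1695 ± 214) in every mouse, whereas in U9-KO males the same pair (1951 ± 433 and 1905 ± 105, n = 4) overlapped.

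No transcript of the 10 differed between U9-KO and WT females at an adjusted p under 0.05, and the ranges of the 2 genotypes overlapped for all 10. All 10 mean differences were above 0 in U9-KO females, with a median log2 fold change of 0.12. The largest was that of Vwf (0.38, and 0.01 without WT female 4 and U9-KO female 3) and the smallest that of Igfbp7 (0.00). Among all genes, limma called 0 of 24825 (0%) after adjustment and 553 (2.23%) at an unadjusted p under 0.05, of which 0 were among the 10. Fold changes above 0 made up 49.9% of all genes tested, and groups without overlap 0.238%. A lower or higher value in bulk tissue can come from fewer or more cells of a type or from less or more RNA per cell, and these cannot be told apart here.

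**Figure D1:**
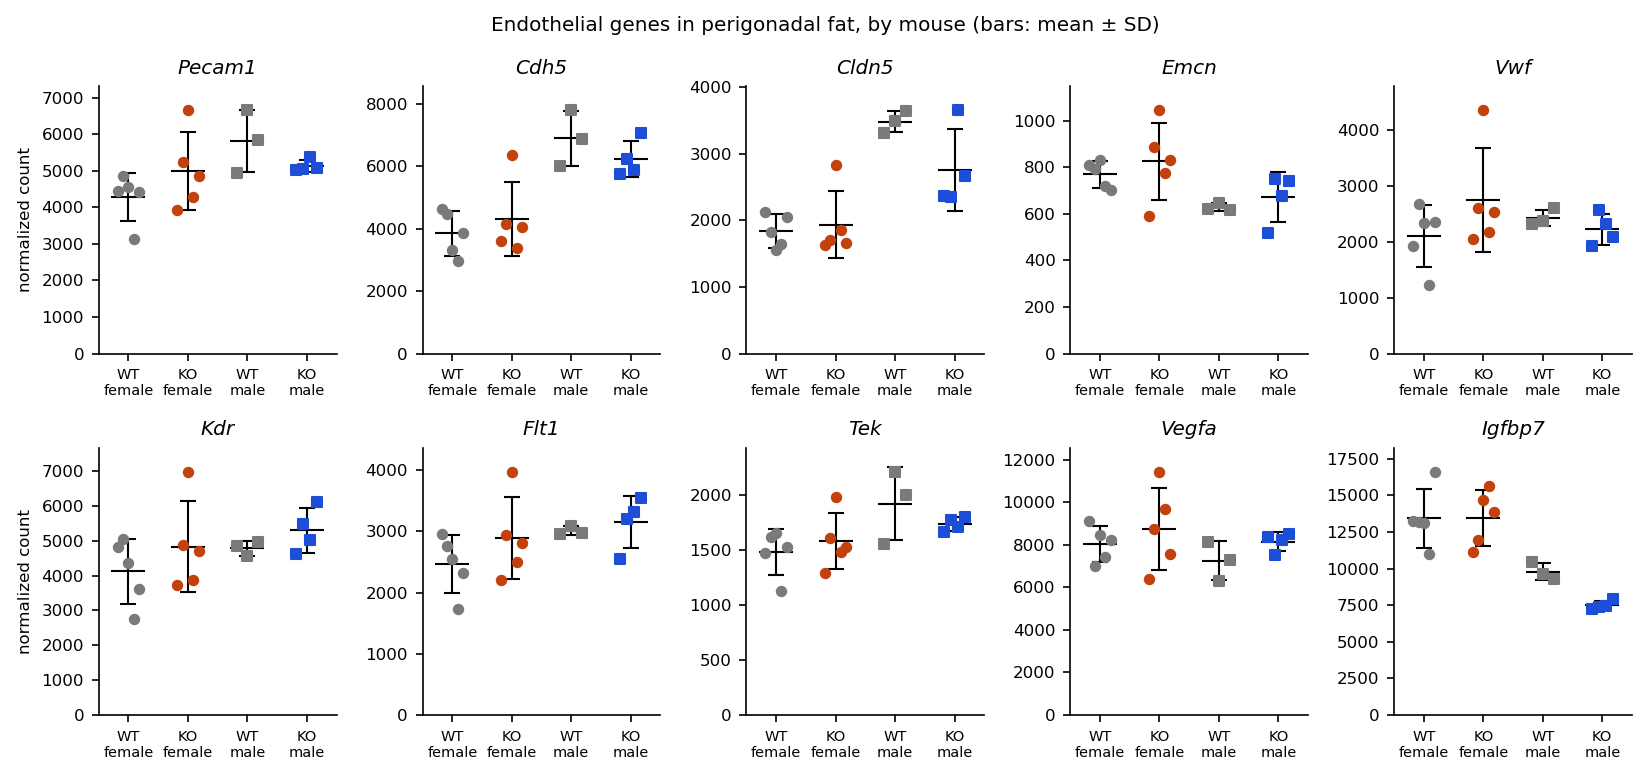
Normalized counts of the 10 genes by mouse, with 1 panel per gene, points for mice (circles female, squares male) and bars for the group mean and SD. The 2 genotypes overlap in every panel except Igfbp7 in males, where the 4 U9-KO mice lie between 7269 and 7944 and the 3 WT mice between 9315 and 10481.

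The direction in females changed when 2 mice, chosen after their values were seen, were left out. In 9 of the 10 genes the highest of the 10 females was U9-KO female 3, and in 7 the lowest was WT female 4. Without these 2 mice, 1 of the 10 fold changes was above 0 and 9 were below, with a median of -0.05. Taking out a high U9-KO mouse and a low WT mouse lowers fold changes by construction. That fit therefore cannot show what the direction rested on. Leaving out U9-KO female 3 alone brought the median to 0.00147, with 5 above 0, and leaving out WT female 4 alone to 0.07, with 8 above 0. Without the 2 ovary-rich females, WT female 4 and U9-KO female 1, all 10 remained above 0 with a median of 0.17. None of the 10 was called in any of these fits.

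Among the junction and surface genes, Cdh5, the adhesion molecule of endothelial junctions, measured 4638, 4457, 3322, 2975 and 3867 normalized counts in WT females. In U9-KO females it measured 3616, 4163, 6370, 3365 and 4048. Apart from the 1 mouse at 6370, the U9-KO females lay inside the range of WT females. The log2 fold change was 0.15 (SE 0.18, 95% CI -0.25 to 0.54, limma adjusted p = 1). Pecam1, an adhesion molecule of endothelial cells and platelets, measured 4438, 4847, 4546, 3130 and 4432 in WT females and 3931, 5246, 6654, 4269 and 4860 in U9-KO females. WT female 4 was the lowest and U9-KO female 3 the highest, and the other 8 mice lay between 3931 and 5246. Its log2 fold change was 0.21 (SE 0.16, 95% CI -0.13 to 0.56, limma adjusted p = 1).

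Cldn5, the tight junction claudin of endothelium, measured 2134, 1823, 1557, 1645 and 2047 in WT females and 1632, 1699, 2837, 1853 and 1668 in U9-KO females. Here 4 of the 5 U9-KO females were within the WT range and U9-KO female 3 stood above it. The log2 fold change was 0.05 (95% CI -0.29 to 0.39). Emcn, a sialomucin of capillaries and veins, was the least abundant by normalized count, with 809, 794, 832, 719 and 701 in WT females and 590, 886, 1045, 775 and 831 in U9-KO females. The U9-KO females held both the lowest and the highest value (log2 fold change 0.08, 95% CI -0.22 to 0.38). Vwf, the clotting factor stored in endothelial granules, measured 1917, 2668, 2336, 1219 and 2345 in WT females and 2038, 2595, 4344, 2177 and 2527 in U9-KO females. It had the widest spread of the 10, with a coefficient of variation of 26.6% in WT and 33.9% in U9-KO females, and its interval for the log2 fold change ran from -0.14 to 0.90.

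Among the receptors, Kdr measured 4809, 5059, 4350, 2766 and 3603 in WT females and 3720, 4864, 6975, 3885 and 4702 in U9-KO females. Flt1 measured 2955, 2767, 2548, 1734 and 2315 in WT females and 2207, 2939, 3974, 2508 and 2815 in U9-KO females. Both VEGF receptors were lowest in WT female 4 and highest in U9-KO female 3, and the remaining WT and U9-KO mice overlapped. Their log2 fold changes were 0.23 (SE 0.20, 95% CI -0.21 to 0.66) and 0.22 (SE 0.17, 95% CI -0.16 to 0.61). Tek measured 1469, 1617, 1651, 1127 and 1526 in WT females and 1286, 1605, 1982, 1483 and 1530 in U9-KO females, again with the same lowest and highest mouse. Its log2 fold change was 0.09 (SE 0.13, 95% CI -0.20 to 0.38).

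The ligand Vegfa measured 9130, 6992, 8476, 7442 and 8224 in WT females and 6384, 8727, 11440, 9675 and 7596 in U9-KO females. U9-KO females included the lowest and the 2 highest values, and the log2 fold change was 0.10 (SE 0.15, 95% CI -0.23 to 0.43). Igfbp7 measured 13285, 13172, 13094, 11017 and 16612 in WT females and 11106, 11945, 14688, 15652 and 13877 in U9-KO females. Its group means were nearly the same, 13436 ± 2009 and 13454 ± 1892 (SD, n = 5 each), and the 95% CI of the log2 fold change ran from -0.29 to 0.30. Igfbp7 was the 1 gene of the 10 for which U9-KO female 3 was not the highest female.

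In males, 4 of the 10 log2 fold changes were above 0 and 6 below, with a median of -0.13, where 50.1% of all genes were above 0. Limma called 0 of 21930 genes (0%) after adjustment, and 1667 (7.6%) had an unadjusted p under 0.05. Of the 10 genes, 2 were among these, Igfbp7 and Cldn5, both lower in U9-KO males, where the background for lower genes was 4.09%. Groups without overlap made up 7.6% of all genes and 3.8% in the lower direction, and 1 of the 10 genes, Igfbp7, was among them.

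Igfbp7 measured 10481, 9604 and 9315 normalized counts in WT males. In U9-KO males it measured 7269, 7388, 7419 and 7944. Every U9-KO male was below every WT male, with means of 9800 ± 607 (SD, n = 3) and 7505 ± 300 (SD, n = 4). The log2 fold change was -0.38 (SE 0.079, 95% CI -0.56 to -0.21), that is 0.766-fold. Its unadjusted p in the limma fit was 0.000665, rank 18 of the 21930 genes, and the limma adjusted p was 0.612, so the difference did not pass correction over all genes. Leaving out each male in turn gave log2 fold changes from -0.42 to -0.33 and limma adjusted p from 0.101 to 0.855. Markers of other cells moved with these groups. All 8 leukocyte markers had lower means in U9-KO males, and their summed level was 15316 to 25747 in WT and 10869 to 14054 in U9-KO males. The sum of 5 platelet markers was 954 to 1168 against 623 to 856, most of it Pf4 (814 to 1043 against 516 to 771). Of the 5 log2 fold changes, 4 were below 0 and 1, that of Gp1ba (0.16), above. In males Ppbp was at 20 or less and Gp9 at 4 or less. Summed fibroblast markers (66489 to 82839 against 60832 to 69982) and mural cell markers (19057 to 26089 against 19636 to 22998) overlapped, none of these markers was at 0 in all libraries, and their part in the Igfbp7 difference was not tested.

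Cldn5 measured 3321, 3487 and 3644 in WT males and 2363, 2359, 3655 and 2672 in U9-KO males. Of the U9-KO males, 3 were below all WT males and 1 was above them all. The log2 fold change was -0.36 (SE 0.14, 95% CI -0.67 to -0.04), with an unadjusted p of 0.0295 and a limma adjusted p of 0.629. Without U9-KO male 3, the mouse at 3655, it was -0.50, and over all males left out in turn it ran from there to -0.29. The unadjusted p was under 0.05 in 2 of those 7 fits.

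The other junction and surface genes overlapped between the male groups. Cdh5 measured 6010, 7788 and 6869 in WT males and 5763, 6219, 5892 and 7050 in U9-KO males (log2 fold change -0.14, 95% CI -0.38 to 0.10). Pecam1 measured 4943, 6650 and 5850 in WT males and 5012, 5049, 5369 and 5077 in U9-KO males (-0.17, 95% CI -0.39 to 0.05). For both genes the spread was wider in WT than in U9-KO males, with a coefficient of variation of 14.7% against 3.19% for Pecam1. Emcn measured 619, 648 and 617 in WT males and 519, 749, 676 and 743 in U9-KO males (0.08, 95% CI -0.20 to 0.36). Vwf measured 2310, 2360 and 2592 in WT males and 1921, 2557, 2307 and 2081 in U9-KO males (-0.13, 95% CI -0.36 to 0.09). For Emcn the wider spread was in U9-KO males, with a coefficient of variation of 15.9% against 2.76%.

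The receptors did not share a direction in males. Kdr measured 4844, 4550 and 4953 in WT males and 4606, 5484, 5013 and 6111 in U9-KO males (log2 fold change 0.14, 95% CI -0.08 to 0.37). Flt1 measured 2966, 3095 and 2972 in WT males and 2554, 3196, 3313 and 3546 in U9-KO males (0.06, 95% CI -0.18 to 0.29). For both VEGF receptors 3 of the 4 U9-KO males were above all WT males and U9-KO male 1 was the lowest U9-KO male. Tek measured 1555, 2209 and 1995 in WT males and 1659, 1774, 1706 and 1799 in U9-KO males (-0.13, 95% CI -0.38 to 0.12). All U9-KO males lay inside the WT range of Tek. Vegfa measured 8159, 6324 and 7302 in WT males and 8374, 7509, 8251 and 8512 in U9-KO males. The highest 3 values were those of U9-KO males, and the log2 fold change was 0.17 (SE 0.099, 95% CI -0.05 to 0.39, limma adjusted p = 0.690).

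Several of these values moved with the WT male that was left out. Without it, 6 of the 10 genes had an unadjusted p under 0.05, in a fit where 3345 of 21467 genes (15.6%) had one. Pecam1 was then at a log2 fold change of -0.28 with a limma adjusted p of 0.147, and Tek at -0.28 with 0.146. Without WT male 2 instead, Pecam1 was at -0.07 (limma adjusted p = 0.888) and Tek at -0.02 (limma adjusted p = 0.974). The fit without WT male 1 called 71 genes after adjustment, and 0 of the 10 were among them. With 2 WT males left, the fit assumed that all genes and groups share a common trend of the spread.

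**Figure D2:**
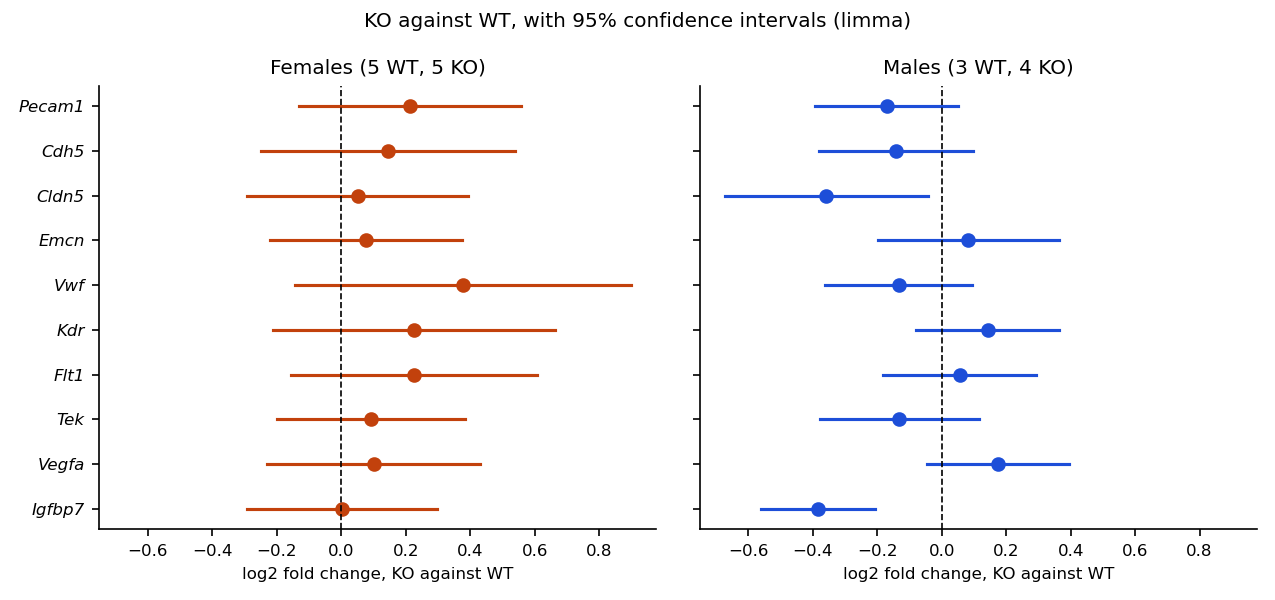
Log2 fold change of U9-KO against WT for the 10 genes in females (left) and males (right), with points for the limma estimate and lines for the 95% confidence interval. All 10 intervals include 0 in females, and those of Igfbp7 and Cldn5 lie below 0 in males before any correction over genes.

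The difference between the sexes in the effect of genotype was tested as an interaction over all 17 mice. It called 0 of 26289 genes (0%) after adjustment, with 910 (3.46%) at an unadjusted p under 0.05. Of the 10 genes, 1 was among these, Igfbp7, with a male minus female difference in log2 fold change of -0.39 (SE 0.18, 95% CI -0.76 to -0.02) and a limma adjusted p of 1. The other differences ran from -0.51 (Vwf) to 0.07 (Vegfa), and 8 of the 10 were below 0, with a median of -0.26. Leaving out 1 mouse at a time gave medians from -0.35 to -0.14. Without WT female 4 and U9-KO female 1 the median was -0.23, with 10 below 0. It became -0.05 without WT female 4 and U9-KO female 3, a pair chosen after their values were seen. In a fit of both sexes with sex as a covariate, 8 of the 10 log2 fold changes were above 0 with a median of 0.07, and 0 of 26289 genes (0%) were called, 1057 (4.02%) having an unadjusted p under 0.05 and 0 of the 10 among them.

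Males and females differed most in Cldn5, Cdh5 and Igfbp7. The size factors appeared to have been set within each sex, so levels are given side by side with no test, as deposited and after rescaling over all 17 libraries, which lowered female values against male values. The ratio of the male to the female median was 1.89 for Cldn5 (2.04 rescaled), 1.57 for Cdh5 (1.69 rescaled) and 0.601 for Igfbp7 (0.647 rescaled). Cldn5 ran from 1557 to 2837 among females and from 2359 to 3655 among males. Cdh5 ran from 2975 to 6370 among females and from 5763 to 7788 among males. For both, U9-KO female 3 was the 1 female within the male range. Igfbp7 was the 1 of the 10 genes without overlap as deposited, with 11017 to 16612 in females and 7269 to 10481 in males, against 11.8% of all genes without overlap and 9.12% lower in males. After rescaling the ranges overlapped (10571 to 16126 and 7589 to 10913), and 0 of the 10 were apart against 11.4% of all genes. For Emcn the ratio was 0.808 (0.889 rescaled). The remaining 6 genes had ratios from 0.977 to 1.16 as deposited, of which Vegfa and Vwf turned from below 1 to 1.05 and 1.06 after rescaling.

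The 10 transcripts correlated positively when all mice were pooled, and this did not hold in every subset of mice. After group means were removed, the 45 pairs had Pearson correlations from 0.28 to 0.95 over the 17 mice, with a median of 0.61, as a description. The closest pairs were Kdr and Flt1 (0.95) and Pecam1 and Tek (0.95). Igfbp7 and Vegfa followed the rest least, with median correlations of 0.40 and 0.48. These points share their library, its size factor and the piece of tissue taken. U9-KO female 3 had a median deviation of 0.46 on the log2 scale from its group mean, and WT female 4 and U9-KO female 1 had -0.37 and -0.33, whereas the medians of the 7 males ran from -0.15 to 0.07. Among the 7 females without these mice, with group means kept, r against Cdh5 ran from -0.39 (Igfbp7 and Vegfa) to 0.68 (Flt1).

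**Figure D3:**
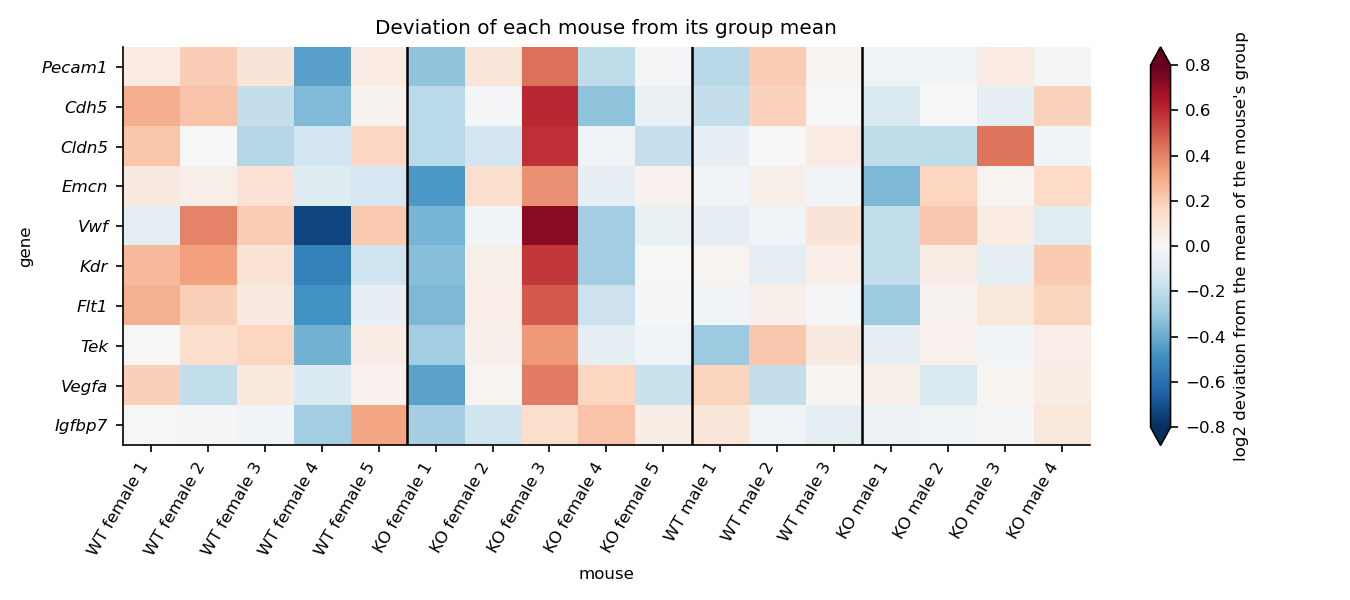
Log2 deviation of each mouse (columns) from the mean of its own group for each of the 10 genes (rows), red above and blue below, with lines between groups. U9-KO female 3 is above its group mean in all 10 genes and WT female 4 below in all 10, while most values of males are closer to 0.

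Within females, Cdh5 was compared with the other 9 genes by permutation of the mice, in a family of 48 relations. Kdr had r = 0.90 and rho = 0.84 (permutation adjusted p = 0.0190 and 0.0371, n = 10), and Flt1 had r = 0.90 and rho = 0.85 (permutation adjusted p = 0.0190 and 0.0371). By Pearson's r, 6 of 9 relations had an adjusted p under 0.05, and by Spearman's rho 2 did. Without U9-KO female 3 and WT female 4, r was 0.68 for Kdr and 0.67 for Flt1. It was 0.52 for Cldn5 and 0.48 for Pecam1, whereas it fell to 0.13 for Tek and 0.14 for Vwf. Those 2 mice had the highest and the lowest Cdh5, so leaving them out narrows the range and tends to lower r. Igfbp7 (r = 0.31, rho = 0.35) and Vegfa (r = 0.53, rho = 0.36) were not called, and without those 2 mice their r turned to -0.15 and -0.10. With 5 mice per genotype, the relation was not computed within genotypes.

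In males, Tek alone was called against Cdh5 by Pearson's r (r = 0.89, exact permutation adjusted p = 0.0278, n = 7) and not by rho (0.86, exact permutation adjusted p = 0.0952). Without WT male 2 and U9-KO male 4, its r was 0.86. Pecam1 had r = 0.77 (exact permutation adjusted p = 0.0667). Vegfa had a correlation of the opposite sign, r = -0.71 and rho = -0.46 (exact permutation adjusted p = 0.110 and 0.468). Kdr, so close to Cdh5 among females, had r = 0.10 among males, and the difference between the sexes was not tested.

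Most of the 10 transcripts in females, among them Vegfa, which adipocytes release too, also followed the summed markers of adipocytes. Of the 10 genes, 9 had a permutation adjusted p under 0.05 by Pearson's r, from 0.74 for Cldn5 to 0.89 for Tek, and Igfbp7 was the exception (r = 0.69, permutation adjusted p = 0.0507). By Spearman's rho, 2 did, Cldn5 (0.87) and Vegfa (0.82). Against the summed ovary markers all 10 correlations were negative, and 6 were called by r (Pecam1, Kdr, Flt1, Tek, Emcn and Vegfa) and 2 by rho, Flt1 and Vegfa, both at -0.84. Without the ovary-rich WT female 4 and U9-KO female 1, r against the ovary sum was -0.71 for Vegfa, -0.60 for Emcn, -0.57 for Flt1, -0.45 for Kdr, -0.32 for Pecam1 and -0.21 for Tek. It was -0.09 for Vwf and 0.40 for Igfbp7, so that 9 of the 10 stayed negative. Those 2 mice had the highest ovary sums, so leaving them out narrows the range and tends to bring r nearer to none. Without the same 2 mice, the adipocyte correlations of the 9 genes were 0.71 to 0.91 and that of Igfbp7 was 0.18. U9-KO female 3 had the highest adipocyte sum (582958). Without it as well, the adipocyte correlations ran from -0.50 for Tek to 0.68 for Cldn5 among 7 females. Leaving out the 2 lowest sums and the highest narrows the range, which tends to lower r. These values therefore cannot show what the relations rested on. In males, 0 of 10 genes were called against the adipocyte sum, and r ran from -0.66 for Pecam1 to 0.59 for Vegfa. Leaving out WT male 2 and WT male 1, the 2 males farthest from the median sum, turned the sign for 7 of the 10 genes, from -0.49 to 0.77 for Cdh5, to 0.74 for Pecam1, 0.98 for Tek and -0.69 for Vegfa, and for Cldn5, Flt1 and Emcn from values close to 0 to 0.39, 0.05 and 0.06. The part of tissue makeup in the female values was not tested.

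**Figure D4:**
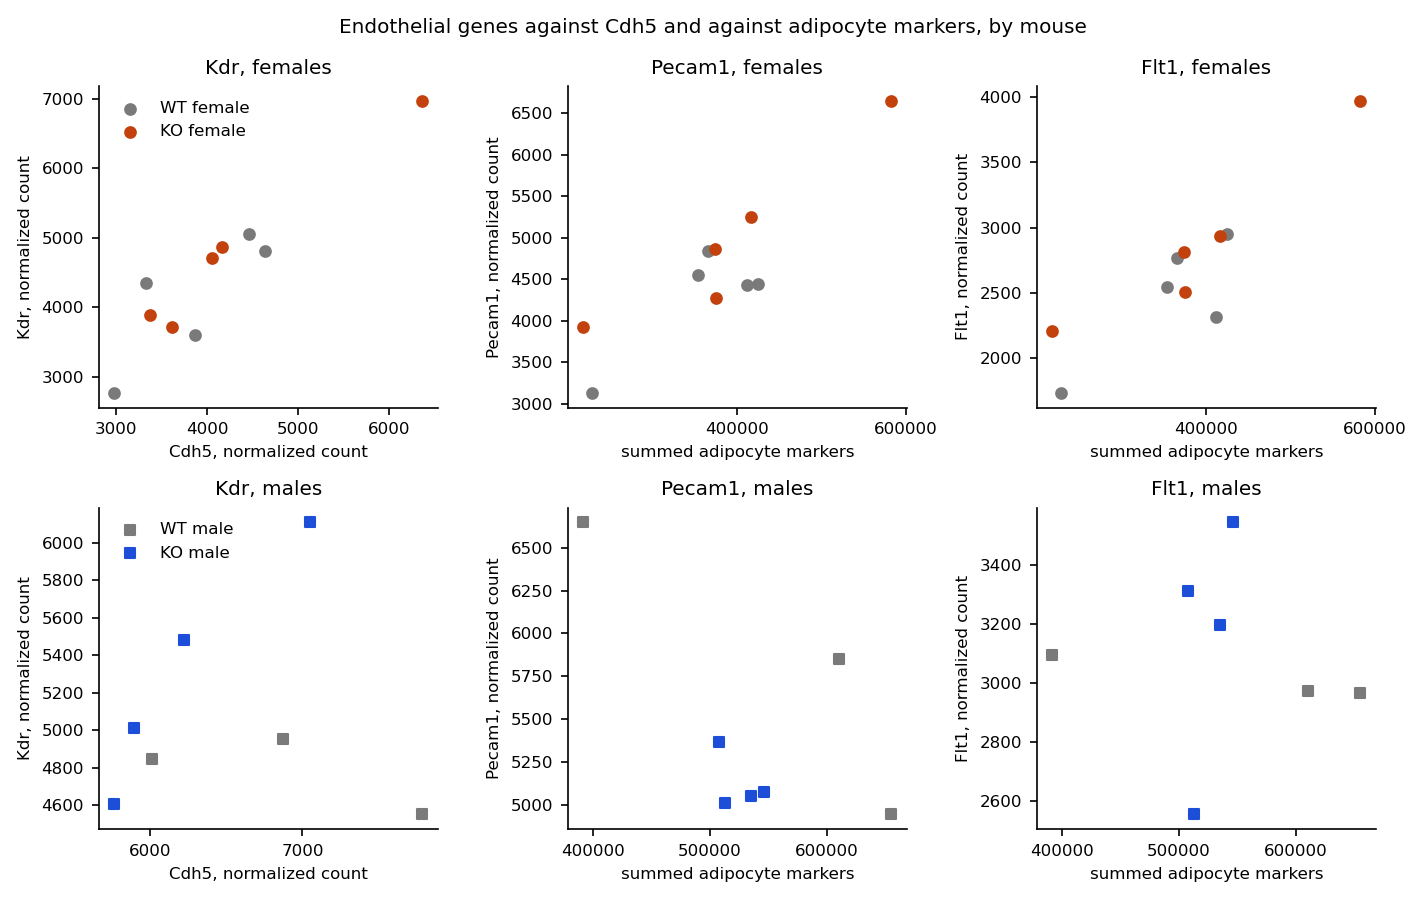
Normalized counts of Kdr against Cdh5 (left) and of Pecam1 and Flt1 against the summed adipocyte markers (middle and right), with 1 point per mouse, females above and males below. In females U9-KO female 3 sits at the upper end and WT female 4 at the lower end of the vertical axis in all panels, and males show no common slope.

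By the same measure over 17 mice, among 12289 genes whose mean normalized count was 100 or more, the genes most like Cdh5 were Rflnb (0.95), Ufm1 (0.94), Zfp366 (0.94), Cdkn1c (0.93) and Mtmr9 (0.93). The closest to Vwf were Jak3 (0.89), Tie1 (0.88), Pecam1 (0.88), Syt15 (0.88) and Epas1 (0.87), of which Tie1 and Pecam1 are endothelial genes of the lists used here. Vegfa was closest to Mthfsl (0.93), Cog4 (0.93), Tgoln1 (0.91), Car4 (0.91), a carbonic anhydrase of capillary endothelium, and Zswim7 (0.91). Igfbp7 was closest to Cdk5rap3 (0.93), Nucb1 (0.87), Baiap2 (0.85), Plvap (0.84), which forms the diaphragms of endothelial fenestrae and caveolae, and Map1lc3b (0.84).

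Of 20 further pan-endothelial genes, 19 had a log2 fold change above 0 in females, with a median of 0.11 and 0 at an unadjusted p under 0.05. Without WT female 4 and U9-KO female 3, 6 were above 0 and 14 below, with a median of -0.08. These mice had the lowest and the highest sum of this list among females (19817 and 38065), so leaving them out lowers fold changes by construction. In males 5 were above 0 and 15 below, with a median of -0.11, and 4 had an unadjusted p under 0.05 against 7.6% of all genes. These 4 were named after their values were seen. Egfl7, a secreted factor of endothelium, ran from 2075 to 2405 in WT and 1869 to 1998 in U9-KO males (log2 fold change -0.25, limma adjusted p = 0.612), Plvap from 1440 to 1538 and 1145 to 1336 (-0.28, limma adjusted p = 0.612), and Icam2 from 379 to 406 and 303 to 348 (-0.25, limma adjusted p = 0.614). Nos3, the endothelial nitric oxide synthase, went the other way, from 766 to 1463 in WT and 1376 to 1588 in U9-KO males (0.41, limma adjusted p = 0.648). The 3 most abundant of the list, Ptprb, Eng and Tie1, had male log2 fold changes of 0.11, 0.00 and -0.14.

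**Figure D5:**
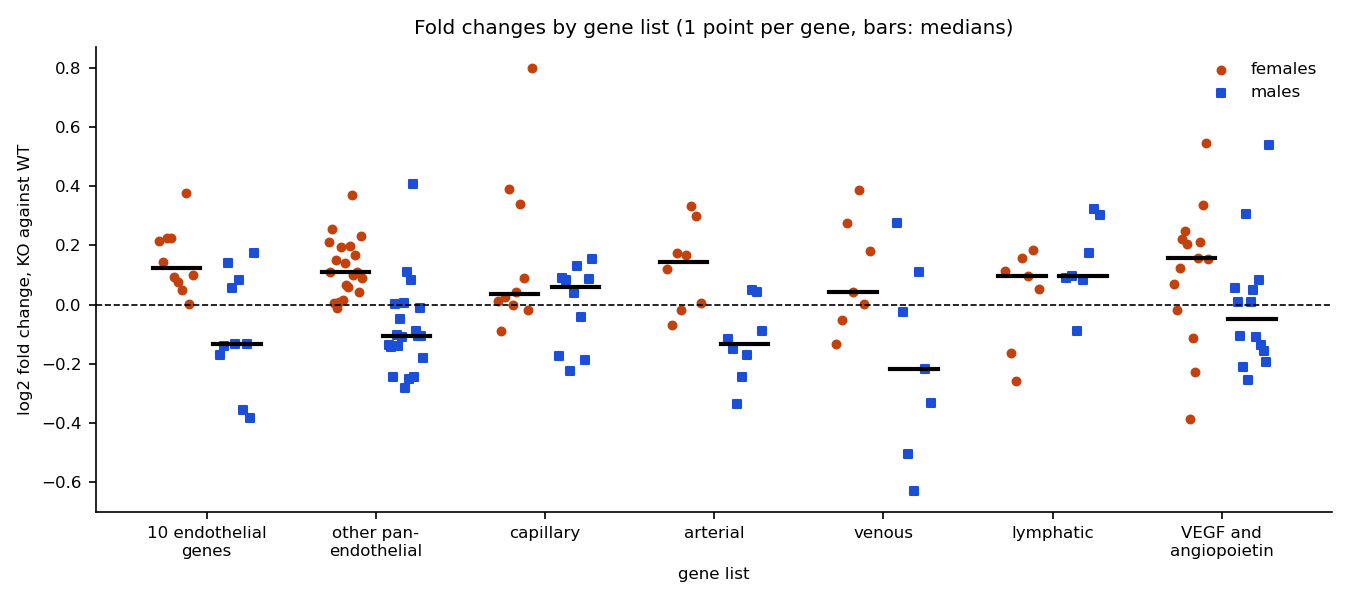
Log2 fold change of U9-KO against WT by gene list, with 1 point per gene, circles for females, squares for males and bars for medians. The 10 genes and the other pan-endothelial genes have female medians of 0.12 and 0.11 and male medians of -0.13 and -0.11.

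Genes of single vessel types gave no called member in either sex, where 0 of 24825 genes in females and 0 of 21930 in males were called. Among 10 capillary genes, 7 were above 0 in females and 6 in males, with medians of 0.04 and 0.06, and the most abundant, Cd36, Rgcc and Cd300lg, had male log2 fold changes of 0.09, 0.08 and 0.04. Of 8 arterial genes, 6 were above 0 in females and 2 in males, with medians of 0.14 and -0.13. The most abundant of these, Sema3g, Efnb2 and Sox17, had male log2 fold changes of -0.09, -0.17 and -0.24. Of 7 venous genes, 5 were above 0 in females and 2 in males, with medians of 0.04 and -0.22, and the abundant Ephb4 and Vcam1 had male log2 fold changes of -0.02 and -0.22. In males 3 venous genes had an unadjusted p under 0.05, where 7.6% of all genes had one, Selp (P-selectin, -0.63) and Icam1 (-0.33), which capture leukocytes, and Nr2f2, the transcription factor of venous identity (0.28), each with a limma adjusted p of 0.614. Of 7 lymphatic genes, 5 were above 0 in females and 6 in males, with a median of 0.10 in each, and Ccl21a, Lyve1 and Mmrn1 had male log2 fold changes of 0.17, 0.10 and 0.30.

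The pathway around Vegfa, Kdr, Flt1 and Tek was covered by 14 further genes, ligands and receptors of the VEGF and angiopoietin families with their close targets. In females 10 were above 0 with a median of 0.16, and Adm, an angiogenic peptide, was the 1 gene at an unadjusted p under 0.05 (207 to 342 in WT, 305 to 361 in U9-KO, log2 fold change 0.34, limma adjusted p = 1). Without WT female 4 and U9-KO female 3, a pair chosen after values of the 10 genes were seen, 6 were above 0. In males 7 were above 0 and 7 below, with a median of -0.05 and none at an unadjusted p under 0.05. The most abundant, Angptl4, Nrp1 and Vegfb, had female log2 fold changes of -0.39, -0.11 and 0.07 and male ones of 0.01, 0.05 and 0.06. Of 12 hypoxia targets, which share their regulator with Vegfa, 8 were above 0 in females and 6 in males, with medians of 0.16 and -0.00247, and the most abundant, Ldha, Bnip3 and Pgk1, had female values of 0.43, -0.28 and 0.15. Adm, which is on both lists, and Egln3 (0.47, limma adjusted p = 1) had an unadjusted p under 0.05 in females, where 2.23% of all genes had one.

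Between the sexes, endothelial genes outside the 10 stood apart in some lists. Of the 10 capillary genes 4, Rgcc, Cd300lg, Meox2 and Cd36, were higher in every male than in every female under both scalings, where 2.66% of all genes were higher without overlap as deposited and 4.76% after rescaling. Rgcc ran from 2237 to 4817 in females and 7015 to 9949 in males. Cd36, a fatty acid transporter that adipocytes also express, ran from 30005 to 66909 in females and 81538 to 96538 in males. Adipocyte markers moved with these, since 3 of the 8, Lep, Pparg and Cidec, were higher in every male under both scalings and Lipe as well after rescaling, and their part in the capillary values was not tested. Among the pan-endothelial genes Erg, an ETS transcription factor of endothelium (406 to 707 and 783 to 1095), and Myct1 (216 to 433 and 439 to 538) were apart under both scalings, as was Angpt1, the ligand of Tek (348 to 623 and 1017 to 2211). Of the lymphatic genes 4 of 7 were lower in males as deposited and 1 after rescaling, when 6.6% of all genes were lower, Prox1, the lymphatic master regulator (132 to 258 and 26 to 86). None of the 10 genes described above was apart under both scalings.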

How the data were processed

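Whole pWAT RNA was sequenced from 17 mice as oligo(dT)-selected, directional libraries. By the submitters' processing notes and the methods, the authors aligned reads to GRCm38 with STAR 2.7.3a and normalized counts with DESeq2 1.28.1. Each deposited value is a score, the authors' read count of a gene scaled by its library's size factor and then rounded, so no count model was fitted and read depth is unknown. Of the male libraries, 2 carry another replicate number in their column than in their label, and the labels were used. The series table repeats these values and was not used here.

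GENCODE release M21 named 55141 of 55401 identifiers. limma 3.58.1 in R 4.3.3 (lmFit, eBayes with trend) was fitted to log2(normalized count + 1), so that fold changes of low genes are understated. Genes whose values summed to 10 or more in the fitted mice were kept. Each sex was fitted alone, and all mice were fitted with a term for sex and with a sex by genotype interaction, with Benjamini-Hochberg adjustment over all genes and a threshold of 0.05. Replicates are separate mice. Fits were tested on simulated data. Correlations used log2 values and two-sided permutation tests, with 100000 resamples in females and all 5040 pairings in males, in Python 3.11.15 with scipy 1.17.1, numpy 2.4.6 and pandas 2.3.3. Alternatives changed the filter, pseudocount, variance model, scaling (TMM, quantile) and covariates, or left out mice.

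The 10 genes and the 16 other lists were chosen with earlier results of these data known, and counts over lists are descriptions. Named were the 10 genes, the 3 most abundant genes of each other list, U90926, the 5 genes most like each of Cdh5, Vegfa, Vwf and Igfbp7, and otherwise genes chosen after their values were seen.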

Additional observations from a re-analysis of the deposited data

Results flagged for a closer look

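In the groups of 4 or 5 mice, 1 mouse lay far from the others of its group in 4 of the 30 sets of values of the 10 genes, where chance gives about 1.5 on average. The sets were not independent, since the 10 genes of a mouse share 1 library, so 4 against 1.5 is no test of an excess. Pecam1 was low in WT female 4, at 3130 normalized counts against 4432 to 4847 in the other 4 WT females. Cdh5 was high in U9-KO female 3, at 6370, where the other 4 mice of the group had 3365 to 4163. Cldn5 was high in the same mouse, at 2837 against 1632 to 1853. Vwf was also high there, at 4344 against 2038 to 2595. U9-KO female 3 had the highest summed adipocyte markers of the females (582958), the lowest summed leukocyte markers (7414), the lowest summed mural cell markers (32653) and the highest hemoglobin sum (41769). WT female 4 had 126450 in summed ovary markers. The part of these in the 4 values was not tested. No difference between the sexes in the effect of genotype passed its test.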

How the results depend on the processing

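Limits came from the spread among females, the small male groups, unknown read depth and values already scaled by the authors. None of the 10 genes was called in any of the fits. Of 484 single-gene values under the alternatives, 28 changed sign. The number of genes called over the whole table was 1 without the variance trend in females, in males and in both sexes, 1 without a filter on low values in both sexes and for the difference, and 1 with a pseudocount of 0.5 or no sex covariate in both sexes. Leaving out single mice gave 0 to 71 called genes in males, the 71 without WT male 1, and 0 in the other fits. The male median of the 10 genes then ran from -0.20 to -0.036, the latter without WT male 2, and that of the difference between the sexes from -0.35 to -0.14. Between the sexes, 0 of the 10 genes stayed apart after rescaling over all libraries, against 1 as deposited. Without WT female 4 and U9-KO female 3, an alternative chosen after seeing the data, female log2 fold changes were -0.00464 for Pecam1, -0.093 for Cdh5, -0.052 for Kdr, -0.019 for Flt1, -0.088 for Tek, -0.038 for Emcn, -0.13 for Cldn5, -0.10 for Igfbp7 and -0.030 for Vegfa, and 0.014 for Vwf. The median of the difference was then -0.046 and that of both sexes -0.068, and the difference for Vegfa was 0.20. Without WT female 4 and U9-KO female 1, also added later, the difference for Vegfa was -0.00572. Igfbp7 in females was -0.057 after quantile normalization and -0.028 with ovary markers as a covariate. Leaving out 1 mouse at a time gave, in females, 0.10 to 0.29 for Pecam1, -0.00519 to 0.22 for Cdh5, 0.084 to 0.31 for Kdr, 0.10 to 0.31 for Flt1, -0.00241 to 0.16 for Tek, -0.014 to 0.19 for Emcn, -0.095 to 0.11 for Cldn5, -0.066 to 0.082 for Igfbp7, -0.00318 to 0.21 for Vegfa and 0.19 to 0.48 for Vwf, in males -0.00424 to 0.15 for Flt1, and for the difference -0.033 to 0.18 for Vegfa. The cause was not tested.

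Replicate numbers were shared across genotypes, and same-numbered mice did not deviate together, with correlations of -0.44 to 0.11 over 5 female pairs (1 over 0.1) and -0.12 to -0.01 over 3 male pairs, and 0 mice were closest to their own number. With the replicate block, 0 genes were called in each comparison, and the block turned the male log2 fold change of Flt1 to -0.00424.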

Other observations

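Smooth muscle genes, which mark the muscular wall of larger vessels but also other muscle of the region, varied far more among females than the endothelial genes did. Summed over 10 mural cell markers, values ran from 32653 in U9-KO female 3 to 201217 in U9-KO female 4, and from 19057 to 26089 in the 7 males. Myh11 ran from 7248 to 101315 in females and 2268 to 3654 in males, Acta2 from 6443 to 57333 and 1853 to 2822, and Des from 1471 to 31400 and 637 to 846. Of the 10 markers, 4 were lower in every male than in every female under both scalings, where 9.12% of all genes were lower without overlap as deposited and 6.6% after rescaling. After rescaling, 2 others, Pdgfrb and Rgs5, were higher in every male than in every female, where 4.76% of all genes were. The mural sums were led by Myh11, Acta2 and Des. Between genotypes, 3 of the 10 were above 0 in females and 4 in males, with medians of -0.06 and -0.05. Hemoglobin transcripts went the other way from the smooth muscle genes. All 5 blood genes were higher in every male under both scalings, where 2.66% of all genes were as deposited and 4.76% after rescaling. Their sum was 48271 to 122306 in males against 11466 to 41769 in females, and Hba-a1 ran from 16745 to 46140 in males and 4335 to 15552 in females. Their log2 fold changes were above 0 for 5 of 5 in females and below 0 for 5 of 5 in males, with medians of 0.37 and -0.40 and none at an unadjusted p under 0.05. The sign pattern is that of the endothelial medians, and a link was not tested.

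For the other marker lists, leukocyte genes were above 0 for 4 of 8 in females and 0 of 8 in males, with medians of -0.07 and -0.52. In males 5 of them had an unadjusted p under 0.05, all lower, where 4.09% of all genes were, with Lyz2 at -0.66 and Ptprc at -0.43 (limma adjusted p = 0.612 for both), while Adgre1 was at -0.34. Platelet genes were above 0 for 1 of 4 tested in females and 1 of 5 in males, with Pf4 at -0.45 in males (limma adjusted p = 0.612), Itga2b at -0.26 and Gp1ba at 0.16. Adipocyte genes were above 0 for 5 of 8 in females and 6 of 8 in males, with medians of 0.14 and 0.01, and Cfd, Adipoq and Cidec had female log2 fold changes of 0.23, -0.06 and -0.16. Fibroblast genes were above 0 for 2 of 6 in each sex (Dcn at 0.08, Col1a2 at -0.23 and Col1a1 at -0.32 in females). Mesothelial genes were above 0 for 0 of 6 in females and 4 of 6 in males, with Upk3b, Wt1 and Msln at -0.10, -0.39 and -0.13 in females. Ovary genes were above 0 for 4 of 10 in females, where Cyp11a1, Hsd3b1 and Star had -0.49, -0.90 and -0.77, and 6 of 9 in males. Male values of these 3 were low, at 20 to 135 normalized counts for Cyp11a1 (log2 fold change 0.15) and 76 to 158 for Star (-0.31). Hsd3b1 was at 0 to 2 in WT and 2 to 73 in U9-KO males (3.51 on the log2(normalized count + 1) scale, limma adjusted p = 0.612), and Hsd3b1 and Inhba (0.61) had an unadjusted p under 0.05. Epididymis genes summed to at most 71 in females and 4 in males, led by Crisp1, Defb20 and Adam28.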
